A study of Mus musculus with 6 samples.

Results

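The matrix proteases and their inhibitors studied here were 4 gene families: the matrix metalloproteinases (Mmp), the ADAMTS proteases (Adamts), the ADAMTS-like proteins (Adamtsl) and the tissue inhibitors of metalloproteinases (Timp). Members were chosen by symbol alone, as all probe sets whose platform annotation named 1 gene and whose symbol was one of these family names followed by a number. This gave 78 probe sets of 42 genes, out of 45037 probe sets other than controls and 18193 genes named by a probe set of their own. The values came from an array study of how gene expression is regionalised in the outflow tract, the tube through which blood leaves the embryonic heart. Its 2 groups were superior outflow tract and inferior outflow tract, both dissected from CD1 mouse hearts at embryonic day 10.5 with no treatment or altered allele named in the labels, and each was measured in 3 pools, numbered 1, 6 and 7 in both regions. Each pool combined littermate embryos, 6 according to the sample labels, while the series design text gives 7 dissected samples per pool. A value is thus an average over embryos and over all cell types of the dissected piece.

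Matrix metalloproteinases and ADAMTS proteases are secreted or membrane-anchored zinc enzymes that cut collagens, proteoglycans and other proteins of the extracellular matrix, and most are made as inactive precursors. TIMP proteins bind the active site of these enzymes and block it, and ADAMTS-like proteins resemble ADAMTS proteases but lack the catalytic domain. In the embryonic outflow tract the space between muscle and endocardium is filled by cardiac jelly rich in versican and hyaluronan, which ADAMTS proteases are known to remodel while the cushions form.

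Signals are linear MAS5 values with the same trimmed mean on every array, so each gives a level against the other probe sets of that array. The median signal ranged from 13.9 to 17.6 over the 6 arrays. Pool 1 stood apart from pools 6 and 7 in its RNA control probe sets, in both regions. The 18S ribosomal RNA control nearest the 5′ end read 31.0 and 21.3 in pool 1, against 454.6 to 752.4 in the other pools. The 5′ beta-actin control read 1980.2 and 1856 in pool 1, against 3217.5 to 3419.9. The superior 6 array had hybridisation controls at 1.64 times the median array. Outflow tract muscle was present in the dissected tissue, with all 10 of its listed markers (such as Tnnt2, Nkx2-5 and Isl1) above background.

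A gene was called above background when 1 of its probe sets read above 8.0 on all 3 arrays of at least 1 region, 8.0 being the highest signal of the 27 Bacillus control probe sets for which no transcript was spiked. By this rule 47 of the 78 member probe sets (60.3%) and 26 of the 42 genes (61.9%) were above background, against 56.7% of all probe sets and 66.6% of all genes. The share of members was thus close to that of all genes, and the members differed by class. All 7 genes of the ADAMTS group that cuts aggrecan and versican (Adamts1, Adamts4, Adamts5, Adamts8, Adamts9, Adamts15 and Adamts20) were above background. So were all 5 measured membrane-anchored enzymes (Mmp14, Mmp16, Mmp17, Mmp23 and Mmp24), and 3 of 4 inhibitors (Timp1, Timp2 and Timp3). Of the others, the gelatinase Mmp2, the stromelysin Mmp11, the procollagen-processing enzyme Adamts3, the ADAMTS genes Adamts6, Adamts7, Adamts10 and Adamts12, and the ADAMTS-like genes Adamtsl1, Adamtsl2, Adamtsl4 and Adamtsl5 were above background.

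**Figure D1:**
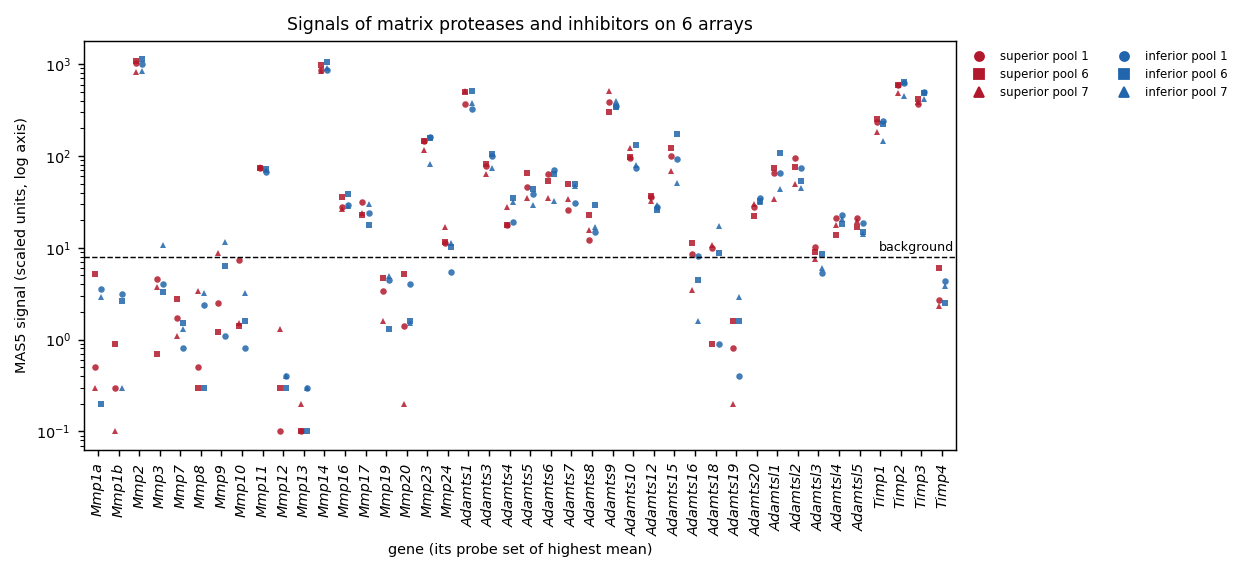
MAS5 signal (log axis, scaled units) of the 42 genes, each by its probe set of highest mean, on the 3 superior (red) and 3 inferior (blue) arrays, with circles, squares and triangles for pools 1, 6 and 7. The dashed line marks the background level of 8.0. The collagenases Mmp1a, Mmp1b, Mmp8 and Mmp13 lie below it on all arrays, while Mmp2, Mmp14 and Timp1 to Timp3 lie far above it, and red and blue points of a gene mostly mix. Heights of different genes are not comparable, because probe sets differ in how strongly they bind.

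The 16 genes that were not above background included all 4 measured collagenases, Mmp1a, Mmp1b, Mmp8 and Mmp13, which cut fibrillar collagen. Mmp13 read between 0.1 and 0.3 on the 6 arrays. The matrilysin Mmp7, the macrophage elastase Mmp12 and the stromelysins Mmp3 and Mmp10 were also not above background. Mmp12 read at most 1.3 and Mmp7 at most 2.8. The other genes of this kind were Mmp9, Mmp19, Mmp20, Adamts16, Adamts18, Adamts19, Adamtsl3 and Timp4, the inhibitor best known from adult heart. For 11 of the 16 genes no value of any probe set exceeded 8.0. The exceptions were Adamtsl3 with 3 of 6 values above, Adamts16 with 4 of 12, Adamts18 with 4 of 18, Mmp9 with 2 of 12 and Mmp3 with 1 of 6. The 16 genes did not pass the background rule by these probe sets, which does not show that their transcripts are absent. For such genes the regions were not compared.

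The promoters of the clustered MMP genes that were not above background differed in their letters from those of genes above it. RefSeq promoters (assembly GRCm38.p6, 250 bases before to 50 after a gene's start) were at hand for 27 of the 42 genes, 15 above background and 12 not, with a gene counted if any of its windows held a motif on either strand. The AP-1 element TGANTCA, a binding motif of Fos and Jun proteins through which several MMP genes are known to be induced, was found in 8 of the 12 genes not above background and in 0 of the 15 above it, against 8.97% of all 27025 genes. The TATA box TATAAA was found in 9 of 12 and 2 of 15, against 15.7% of all genes. The GC box GGGCGG, a motif of Sp factors, was found in 2 of 12 and 14 of 15, against 38.2%. The median number of CpG dinucleotides in a window was 2 in the genes not above background and 24 in those above, against 8 in all genes. These counts describe letters only, and were not tested. Of the 12 genes not above background 9 lie on chromosome 9, where MMP genes form a cluster of related copies, so they are not independent of each other. All 8 AP-1 and all 9 TATA matches of the 12 genes were in those 9. The other 3, Adamts18, Adamtsl3 and Timp4, had neither motif, and Adamts18 and Adamtsl3 had GC boxes and 22 and 46 CpG dinucleotides, so the AP-1 and TATA contrast was not seen outside the cluster. Timp4 had no GC box and 2 CpG dinucleotides.

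The 100 bases before the annotated start are shown for 3 clustered genes not above background and 3 genes above it, because they carry this contrast. Capitals mark TGANTCA and TATAAA in the first 3 and GGGCGG, or its reverse complement, in the last 3. Mmp3 lies at chr9:7445722-7445821 (+ strand), Mmp10 at chr9:7502242-7502341 (+), Mmp13 at chr9:7272414-7272513 (+), Mmp14 at chr14:54431498-54431597 (+), Timp2 at chr11:118355412-118355511 (- strand) and Timp3 at chr10:86300312-86300411 (+).
Mmp3: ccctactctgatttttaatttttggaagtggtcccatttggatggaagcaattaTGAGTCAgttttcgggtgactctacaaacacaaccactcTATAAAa
Mmp10: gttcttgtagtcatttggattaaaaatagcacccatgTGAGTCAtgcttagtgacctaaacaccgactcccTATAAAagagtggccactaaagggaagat
Mmp13: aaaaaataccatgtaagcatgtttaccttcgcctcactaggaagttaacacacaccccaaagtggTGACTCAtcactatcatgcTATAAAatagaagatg
Mmp14: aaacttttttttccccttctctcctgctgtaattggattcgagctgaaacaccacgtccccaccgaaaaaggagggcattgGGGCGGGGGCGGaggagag
Timp2: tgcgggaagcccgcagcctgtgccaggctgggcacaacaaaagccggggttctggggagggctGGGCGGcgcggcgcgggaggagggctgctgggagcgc
Timp3: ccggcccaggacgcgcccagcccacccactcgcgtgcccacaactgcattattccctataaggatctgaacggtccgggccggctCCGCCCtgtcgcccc
In all 3 clustered genes the AP-1 element came before the TATA box, starting 46, 63 and 35 bases before the start of Mmp3, Mmp10 and Mmp13.

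No member differed between superior and inferior outflow tract past the threshold. Differences are superior minus inferior on the log2(signal + 3.2) scale, which understates changes of dim genes. They were tested with limma over the 22518 probe sets of higher mean signal, among them 43 member probe sets of 25 genes. A gene is described by its tested probe set of highest mean. Without a term for the pool number, limma called 0 of 43 member probe sets at a Benjamini-Hochberg adjusted p of 0.05, and 0% of all probe sets. At an unadjusted p of 0.05 this fit passed 1 member probe set, 2.33% against 3.52% of all. With regions compared within each pool number, called the paired fit here, limma again called 0 members, against 0.160% of all probe sets, and the smallest adjusted p of a member was 0.310. At an unadjusted p of 0.05 the paired fit passed 8 member probe sets (18.6%), against 11.0% of all. Of these 3 were higher and 5 lower in superior, against 4.98% and 6.00% of all probe sets. The 8 held more than 1 probe set of Timp3 and of Adamts5. By 1 probe set per gene the paired fit passed 3 of the 25 members at this level, Timp3, Adamts3 and Adamtsl2. The share of all genes by 1 probe set per gene is not given at this level, so the 3 are not read as a result. Whether each pool was a litter of its own is not given, so p-values measure only the spread between these pools. RNA from whole pieces also cannot tell fewer cells of a type from less RNA per cell.

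The region differences of the 25 tested genes ranged from -0.37 for Adamts4 to 0.34 for Adamts5, with 12 genes above 0, 13 below and a median of -0.026, against a median of -0.0028 over all 11195 genes tested, 49.2% of which were above 0. Regardless of sign, the median size of a member's difference was 0.19, against 0.11 for the 11195 genes. In the paired fit the 95% confidence interval of every one of the 25 genes lay within 1 log2 unit of 0, a change of less than 2-fold, the outermost bounds being -0.85 and 0.69. In the unpaired fit the intervals of 3 genes passed that limit, with bounds of -1.01 for Adamts4, 1.01 for Adamts15 and -1.18 for Adamtsl1. The difference had the same sign in all 3 pool numbers for 13 genes (52.0%), against 35.0% of all genes. Of these 5 were higher and 8 lower in superior, against 17.9% and 17.1% of all genes. The regions did not overlap for 4 genes (16%), against 9.74% of all genes. These were Timp3 and Adamts20, lower in superior, and Adamts12 and Mmp11, higher.

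**Figure D2:**
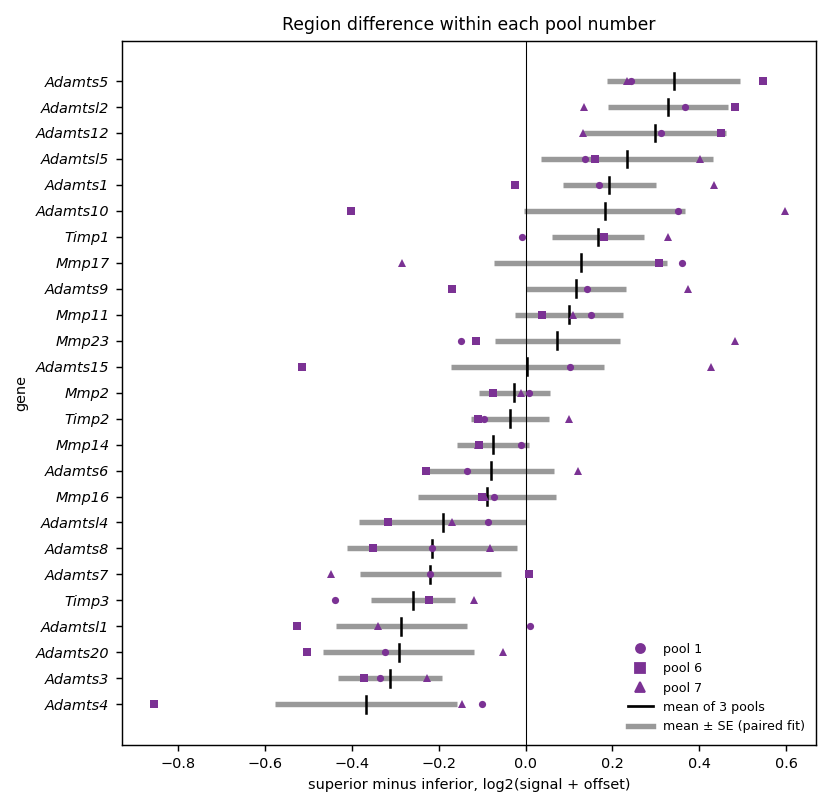
Superior minus inferior difference on the log2(signal + offset) scale for the 25 tested genes, within pools 1, 6 and 7 (circles, squares, triangles), with the mean of the pools (black) and the mean ± SE of the paired fit (grey). Means lie between -0.37 and 0.34, and the points of 12 genes fall on both sides of 0.

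Among the inhibitors, Timp3, which binds to the matrix and also blocks ADAMTS enzymes, had regions that did not overlap in its 2 brightest probe sets. The brightest read 369.9, 416.3 and 387.8 in superior pools 1, 6 and 7 and 502.1, 485.9 and 421.1 in inferior pools. All superior values lay below all inferior values. The log2 difference was -0.26 ± 0.10 (SE of the paired fit), 1.20-fold more signal in inferior, with paired adjusted p = 0.415 and a 95% interval from -0.48 to -0.037. A second bright Timp3 probe set read 256.8, 271.7 and 244.3 in superior and 348.5, 332.2 and 280.5 in inferior pools, again without overlap, with a difference of -0.31 ± 0.10 (paired adjusted p = 0.359). It was the 1 member probe set with an unadjusted p under 0.05 in the unpaired limma fit (0.0426). The dimmer probe sets of Timp3 did not share this, with differences of 0.0022 ± 0.23 and -0.082 ± 0.19.

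Timp2, which inhibits Mmp2 and also takes part in its activation by Mmp14, read 589.6, 597.9 and 486.6 in superior and 630.5, 644.8 and 453.8 in inferior pools. The regions overlapped, with a difference of -0.035 ± 0.090 and a 95% interval from -0.24 to 0.17. Its 4 tested probe sets differed in sign. The third brightest, whose identifier marks probes that can match several transcripts, was lower in superior in each pool (168, 309 and 285 against 238, 411 and 322), with a difference of -0.36 ± 0.10 and the smallest paired adjusted p of all members, 0.310. Timp1, a soluble inhibitor, read 237.3, 251.8 and 184.2 in superior and 238.6, 221.9 and 146.0 in inferior pools. Both arrays of pool 7 were lowest for Timp1, and the region difference was 0.17 ± 0.11 with an interval from -0.077 to 0.41.

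The gelatinase Mmp2, which degrades denatured collagen and basement membrane collagen, read 1019.9, 1074.4 and 831.9 in superior and 1013.8, 1131.8 and 838.3 in inferior pools. For this probe set the values of a pool number were nearly equal in both regions, and the difference was -0.026 ± 0.082 with a 95% interval from -0.21 to 0.16. The second Mmp2 probe set read 713.6, 790.4 and 659.3 in superior and 833.5, 900.7 and 724.9 in inferior pools. It was lower in superior within each pool number, with a difference of -0.18 ± 0.082 and paired limma adjusted p = 0.466. Mmp14, the membrane-anchored enzyme that activates Mmp2, read by its brightest probe set 855.3, 979.2 and 850.7 in superior pools against 861.6, 1054.2 and 918.3 in inferior ones. The difference of -0.076 ± 0.082 was of the same size as its error, with an interval from -0.26 to 0.11. A dimmer Mmp14 probe set, which also differed between pool numbers, was lower in superior within each pool number, at -0.34 ± 0.14 with an interval from -0.66 to -0.028 and paired limma adjusted p = 0.433.

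Of the other membrane-anchored enzymes, Mmp16 (-0.089 ± 0.16), Mmp17 (0.13 ± 0.20) and Mmp23 (0.073 ± 0.14) had overlapping regions. Mmp24 was above background but too dim for the test. Its probe set of highest mean read 11.3, 11.5 and 17.0 in superior and 5.4, 10.3 and 11.2 in inferior pools, 1 inferior value lying below background. Of the 3 Mmp24 probe sets only this 1 passed the background rule. Another read 11.1, 7.0 and 11.9 in superior and 6.2, 7.0 and 20.6 in inferior pools. The stromelysin Mmp11 read 74.2, 73.7 and 76.0 in superior and 66.5, 71.7 and 70.2 in inferior pools. Its regions did not overlap, but the difference was only 0.10 ± 0.12 (paired adjusted p = 0.812).

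The aggrecan- and versican-cleaving ADAMTS genes had differences of both signs, with 4 of 7 above 0 and a median of 0.0043. The median had no stable sign, ranging from -0.29 without the inferior 7 array to 0.24 without pool 6, with 2 to 5 genes above 0. Adamts5, a protease known to trim versican in developing valves, read 46.5, 66.0 and 34.8 in superior and 38.8, 44.2 and 29.1 in inferior pools. It was higher in superior within each pool number, although the regions overlapped across pools. The difference was 0.34 ± 0.15, 1.27-fold, with paired adjusted p = 0.466 and an interval from -0.0089 to 0.69. It was 0.12 without the superior 6 array, 0.19 without the inferior 7 array and 0.55 without the superior 7 array. Its other tested probe sets gave 0.39 ± 0.16 and 0.51 ± 0.21, also higher within each pool number. All 3 tested probe sets of Adamts5 thus ran the same way and none passed the adjusted threshold. Another, not tested, read at most 0.3 on every array.

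Adamts4, another aggrecanase, had the lowest difference, -0.37 ± 0.21. It read 17.8, 17.9 and 27.9 in superior and 19.3, 35.0 and 31.2 in inferior pools. Most of the difference came from pool 6, at -0.86, against -0.10 and -0.15 in pools 1 and 7. Adamts20, the gene of the belted coat colour mutant, read 27.5, 22 and 30.2 in superior and 35.2, 32.5 and 31.4 in inferior pools. Its regions did not overlap, with a difference of -0.29 ± 0.17 (paired adjusted p = 0.573).

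Adamts1, Adamts9 and Adamts15 showed no common direction. Adamts9, a protease that cuts versican in the embryonic heart, read 388.9, 301.0 and 516.7 in superior and 352.2, 338.7 and 397.7 in inferior pools. This brightest probe set was higher in superior in pools 1 and 7 and lower in pool 6, with a difference of 0.12 ± 0.12. A dimmer Adamts9 probe set was higher in superior within each pool number (0.26 ± 0.16), and another gave -0.0060 ± 0.14. Adamts1 was also higher in pools 1 and 7 and lower in pool 6, with differences of 0.17, -0.025 and 0.43 in pools 1, 6 and 7. For Adamts15 these were 0.10, -0.52 and 0.43, with a mean of 0.0043 ± 0.18 over pools of opposite sign. Adamts8 had a difference of -0.22 ± 0.20.

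Among the remaining ADAMTS genes, Adamts3, which removes the N-terminal propeptide of collagens and processes VEGF-C, read 78.0, 81.5 and 63.5 in superior and 99.3, 106.4 and 74.9 in inferior pools. It was lower in superior within each pool number, by -0.34, -0.37 and -0.23, and the regions overlapped through pool 7. The difference was -0.31 ± 0.12, 1.24-fold more in inferior, with paired adjusted p = 0.419. Adamts12 read 35.5, 36.4 and 32.2 in superior and 28.0, 25.8 and 29.1 in inferior pools, without overlap, a difference of 0.30 ± 0.17 (paired adjusted p = 0.543). Adamts12 and its relative Adamts7 both cut cartilage oligomeric matrix protein, yet Adamts7 had a difference of the other sign, -0.22 ± 0.16. Adamts6 and Adamts10, a related pair linked to fibrillin microfibrils, had differences of -0.080 ± 0.15 and 0.18 ± 0.18.

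Of the ADAMTS-like genes, Adamtsl2, whose protein binds fibrillin and a latent TGF-beta binding protein, read 96.2, 76.3 and 49.5 in superior and 73.9, 53.7 and 44.8 in inferior pools. It was higher in superior within each pool number, with a difference of 0.33 ± 0.14, 1.26-fold, and paired adjusted p = 0.441. It was 0.12 without the superior 1 array, 0.17 without the inferior 7 array, 0.51 without the inferior 1 array and 0.58 without the superior 7 array. Adamtsl5 read 20.9, 16.9 and 19.8 in superior and 18.7, 14.8 and 14.2 in inferior pools, a difference of 0.23 ± 0.20 with overlapping regions. Adamtsl1 read 65.6, 74.8 and 34.0 in superior and 65.1, 109.2 and 43.9 in inferior pools. Its difference of -0.29 ± 0.15 was 0.011 in pool 1, and another of its probe sets gave 0.26 ± 0.24. Adamtsl4, a fibrillin-binding protein, had a difference of -0.19 ± 0.19.

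More of the members' variation lay between pool numbers than between regions. Of the sum of squares of a gene's log2 values over the 6 arrays, the median share between pool numbers was 72.9% for the 25 tested members and 58.6% for all genes, and the median share between regions was 10.5% and 10.4%. The share between pool numbers was the larger for 20 of the 25 members (80.0%), against 78.9% of all genes. The exceptions were Adamts12, Mmp11, Timp3, Adamts20 and Adamtsl5. With 3 pool numbers and 2 regions the pool share has more degrees of freedom, so the shares are read against those of all genes.

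**Figure D3:**
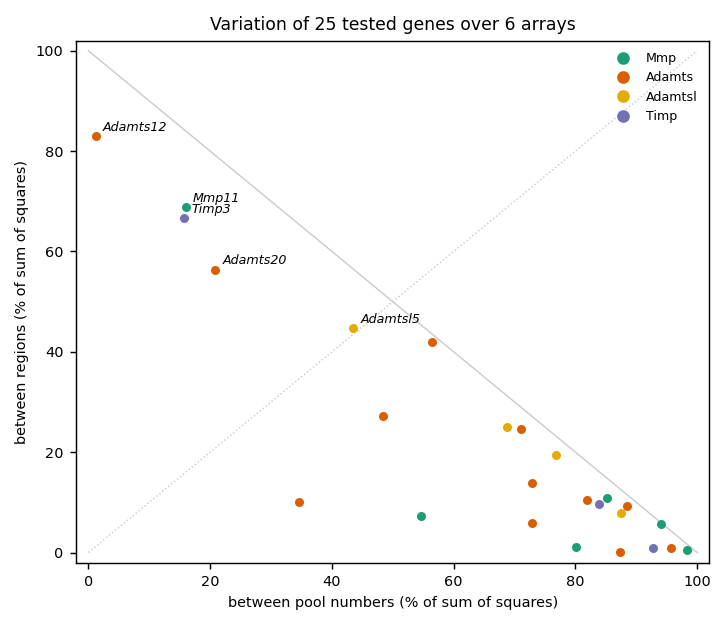
Share of the sum of squares of log2 values over 6 arrays that lies between regions (vertical, %) and between pool numbers (horizontal, %) for the 25 tested genes, coloured by family. The dotted line marks equal shares and the solid line a sum of 100%. Only Adamts12, Mmp11, Timp3, Adamts20 and Adamtsl5 of these genes lie above the dotted line, and the members' median is 72.9% between pools and 10.5% between regions.

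A test of the pool term beside the region, limma's F test over the 3 pool numbers, called 13 of 43 member probe sets (30.2%) at an adjusted p of 0.05, against 14.1% of all probe sets. By 1 probe set per gene it called 5 of 25 members (20%), against 11.2% of all genes. Both pool 1 arrays were lowest in 5 of the 13 probe sets and both pool 7 arrays in 7, and in the other one, of Adamtsl1, both pool 6 arrays were highest. The smallest adjusted p of these was in Mmp14. A dimmer probe set of Mmp14 read 12.9 and 17.7 in pool 1 against 117.4 to 148.8 in pools 6 and 7 (adjusted p = 0.000122), and another read 31.9 and 37.5 against 104.0 to 162.6 (adjusted p = 0.000664). The brightest Mmp14 probe set showed no such gap, with 855.3 and 861.6 in pool 1 against 850.7 to 1054.2.

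The inhibitors Timp2 and Timp3 also had dimmer probe sets that were lowest in pool 1. One of Timp2 read 38.2 and 29.6 in pool 1 against 77.7 to 130.5 in the other pools (adjusted p = 0.00192), and one of Timp3 read 39.8 and 28.2 against 58.0 to 99.5 (adjusted p = 0.0361). The brightest probe sets of both genes showed no such gap, so probe sets of 1 gene differed in what they gave for the pool. The same pool 1 arrays had the low 5′ control signals given above, and the part of RNA or labelling quality in these pool differences was not tested.

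**Figure D4:**
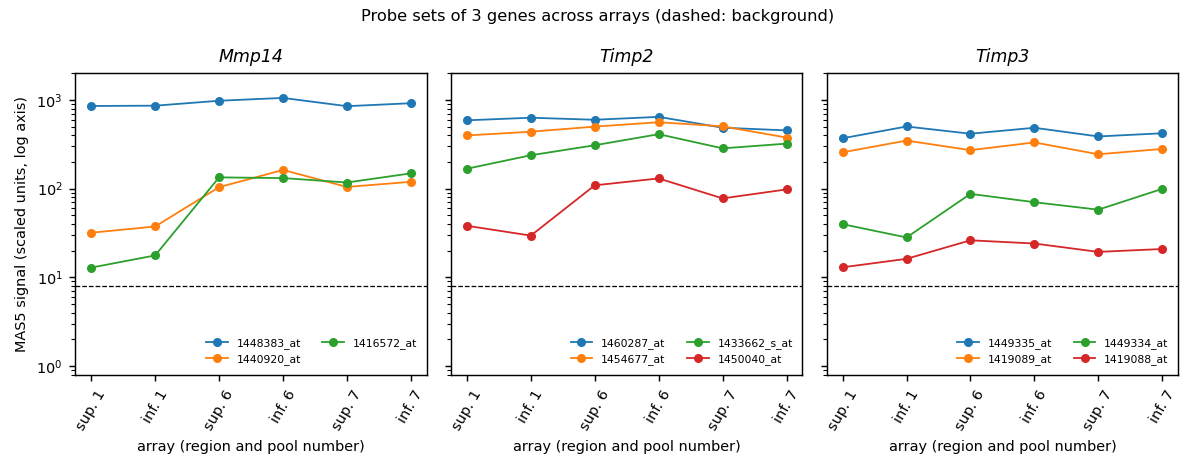
MAS5 signal (log axis, scaled units) of the tested probe sets of Mmp14, Timp2 and Timp3 on the 6 arrays, ordered by pool number and region, with lines joining the values of 1 probe set. The dashed line is the background level of 8.0. Some probe sets drop on both pool 1 arrays, such as one of Mmp14 at 12.9 and 17.7, while the brightest probe set of each gene stays level.

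A different set of members was lowest in both pool 7 arrays. Adamts15 read 121.7 and 175.3 in pool 6, 101.0 and 93.9 in pool 1, and 69.5 and 50.9 in pool 7 (adjusted p = 0.0154). Its pools did not overlap, although its regions did. Adamts6 read 35.1 and 32 in pool 7 against 53.9 to 69.8 elsewhere (adjusted p = 0.0194), and Adamtsl1 34.0 and 43.9 in pool 7 against 65.1 to 109.2 (adjusted p = 0.0106). Timp1 and Adamtsl2 were also lowest in both pool 7 arrays, with adjusted p = 0.0392 and 0.0352.

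Without pool 1, the comparison of pool 6 with pool 7 called 3 member probe sets, against 1.31% of all probe sets. These were of Adamts5 (limma adjusted p = 0.0220), Adamts15 (0.0267) and Adamtsl1 (0.0141), each higher in pool 6. The Adamts5 probe set called was not the brightest one, by which the gene is described above. It read 61.9 and 46.0 in pool 6 against 23.2 and 18.3 in pool 7, and the brightest was not called. This fit has 4 arrays, and the gaps between pools 6 and 7 given above for Adamts6, Timp1 and Adamtsl2 did not pass the threshold in it.

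Of 28 listed genes for the cushion matrix, its synthesis and its binding partners, 24 were tested, 12 above 0 and 12 below, and limma called 0 in either fit. Without the superior 6 array 6 were above 0 (median -0.13), without the inferior 6 array 18 (median 0.14), and without the inferior 7 array 8. The 3 with the smallest paired p were Tnc, Col4a1 and Eln. The signal of Tnc, the cell adhesion modulator tenascin C, averaged 1488 ± 210 in superior against 1950 ± 52.7 in inferior pools (SD, n = 3), a log2 difference of -0.40 ± 0.099 with a limma paired adjusted p = 0.255. Col4a1, a basement membrane collagen, had 1927 ± 136 and 1553 ± 203 (0.32 ± 0.088, 0.298). Eln, which encodes elastin, had -0.37 ± 0.10 (0.299). Versican itself, Vcan, chosen here as the main ADAMTS substrate of the cushion after its values were seen, had 3080 ± 518 and 2951 ± 399 (0.058 ± 0.093).

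Of the activators and other inhibitors of matrix proteases, 14 of 24 listed genes were tested, 6 above 0 and 8 below, and 0 were called in either limma fit. Serpinf1, which encodes pigment epithelium-derived factor, averaged 684 ± 90.8 in superior against 864 ± 120 in inferior pools, a log2 difference of -0.33 ± 0.086 (paired adjusted p = 0.263). Lrp1, a receptor that clears proteases, had -0.29 ± 0.092 (0.359), and Tfpi2, a Kunitz-type protease inhibitor, 0.48 ± 0.17 (0.393). Of the other metalloproteases and matrix-processing enzymes, 23 of 33 listed genes were tested, 5 above 0 and 18 below, with a median of -0.077 and 0 called in either fit. That split depended on the scaling, with 9 above 0 under each of 75th percentile scaling, quantile normalization and cyclic loess. It was 11 without the inferior 1 array, 13 without the superior 7 array (median 0.0035), 9 without the inferior 6 array and 10 without pool 1. Loxl1, a crosslinker of elastic fibres, had 0.38 ± 0.090 (paired adjusted p = 0.234), the membrane peptidase Mme -0.54 ± 0.16 (0.336) and Adam12 -0.31 ± 0.10 (0.376).

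Tested markers of epicardium and chamber muscle had differences above 0 throughout, with medians of 1.06 and 0.71, the largest of the marker lists. They ran from 0.086 ± 0.12 for Krt19 to 2.24 ± 0.30 for Nppa (paired limma adjusted p = 0.838 and 0.0622). Irx4 had 2.09 ± 0.24 (0.0294) and Tbx18 1.86 ± 0.12 (0.00260), all named after their values were seen. All 8 epicardial markers were above background, all 8 had a difference above 0 and 7 were higher in superior within each pool number. The paired limma fit called 4 of these, but with the pool number as a random block, which estimates the correlation within pools, it called 0 (smallest adjusted p = 0.0871 with an estimated correlation), and the unpaired fit called 0. Their summed signal was 1101 to 1910 in superior and 686 to 932 in inferior pools. Of 6 tested chamber muscle markers all 6 were higher in superior within each pool number. The paired limma fit called 1, and 0 were called with the random block (smallest adjusted p = 0.0613 with an estimated correlation) or unpaired. The summed signal of that list was 2473 to 3894 against 1750 to 2610, with Gja5 not above background. Of the cushion mesenchyme markers 7 of 8 had a difference below 0, with a median of -0.17, although the summed signals overlapped (5528 to 8093 against 5568 to 7644). Of the tested neural crest markers 5 of 6 were below 0, with a median of -0.22. The 1 above 0 was Sox10, at 0.31 ± 0.21 (paired limma adjusted p = 0.626). The lowest were Dlx2 at -0.99 ± 0.20 (paired limma adjusted p = 0.155) and Ngfr at -0.79 ± 0.21 (0.267), both named after their values were seen, and the summed signals of this list overlapped (554 to 726 against 663 to 788). The sums of endothelial (1612 to 2161 against 1617 to 2000), smooth muscle (9317 to 11313 against 8722 to 9369), erythroid (13810 to 22510 against 12427 to 15577), macrophage (109 to 322 against 132 to 291) and pharyngeal epithelial markers (1124 to 1318 against 933 to 1428) overlapped too. The 10 outflow tract muscle markers were split, 4 above 0 and 6 below with a median of -0.14, and limma called 0 in either fit. Those above 0 were Tnnt2, Myl7, Actc1 and Myh7, while Nkx2-5 and Isl1 were among those below. Within each pool number 4 of the list were higher and 5 lower in superior. Taken gene by gene, the regions did not overlap for 6 of 8 epicardial, 4 of 6 chamber muscle and 3 of 6 neural crest markers. This also held for 2 of 10 outflow tract muscle, 1 of 8 cushion mesenchyme and 1 of 4 smooth muscle markers. The endothelial, erythroid, macrophage and pharyngeal epithelial lists had 0, and the share over all genes was 9.74%. Defining genes that were not above background were Foxd3, Myh11, Hba-a1, Lyz2, C1qa, Fcgr1, Pax1 and Pax9. The part of these cell types in the values of the proteases was not tested.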

How the data were processed

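Each of 6 RNA pools had its own Affymetrix Mouse Genome 430 2.0 array. The deposited tables give intensity on a linear scale from MAS5, a tool named in the submitters' processing notes (version not given in the sources used here). The trimmed mean was 100 on every array. Arrays hold no counts, and their number limits the precision. Of 45101 probe sets, 64 controls were left out. Genes were named through the platform annotation (34945 probe sets naming 1 gene, 932 several, 9160 unnamed here), and all 42 member symbols matched RefSeq's gene table (GRCm38.p6) by gene ID. Of 51 family members listed, 9 without such a probe set were not analysed here.

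Signals were turned into log2(signal + 3.2), 3.2 being the 25th percentile of all signals, and probe sets with a mean above the median (a signal of about 15.1) were tested with limma 3.58.1 in R 4.3.3 (lmFit, eBayes with trend and robust variance), superior minus inferior, adjusting over 22518 probe sets. Standard errors and intervals are those of the paired fit, which adds the pool number as a block. Same-numbered arrays deviated together (correlations of 0.79, 0.43 and 0.51 in pools 1, 6 and 7, across probe sets and above the limit of 0.1). Some unlike-numbered arrays of pools 6 and 7 also passed the limit (0.18 and 0.20). The scripts were tested on simulated data. Named in full were Timp genes above background, genes with an unadjusted p under 0.05 in either fit and the 10 above background with the largest difference. Array values of Mmp2, Mmp11, Mmp14, Adamts9, Adamts15 and Adamts6 were added after their values were seen. The members and lists were chosen with earlier results of these data known, and the test between pool numbers was added after the data were seen. Offset, filter, scaling, variance model, left-out arrays and background rule were varied.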

Additional observations from a re-analysis of the deposited data

How the results depend on the processing

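No member was called under any of the 23 alternative limma settings run for the region comparison. The fit blocked on pool number (replicate block) called 36 of all probe sets, and 38 with 75th percentile scaling, 37 with quantile normalization and 38 with cyclic loess beside that block. Leaving out 1 array, or 1 pool number with the block, gave 0 to 231 calls, with 9 without pool 1, 231 without pool 6 and 116 without pool 7, and a fit with so few residual degrees of freedom gives no stronger evidence by calling more. Without trend and robust variance the blocked fit called 0. With the pool number as a random block (estimated correlation 0.515) limma called 0 of all probe sets, so each of the 36 calls was lost. The block changed no other call. Over the 11 named genes that were tested, the direction held in 236 of 245 gene and setting pairs. Timp2 turned to 0.0044 under 75th percentile scaling, with or without the block, to 0.0019 with the block and without pool 6, and ranged from -0.20 to 0.060 when an array or a pool was left out. Under the same omissions Timp1 ranged from -0.048 to 0.30 and Adamtsl1 from -0.58 to 0.043, and the cause was not tested. Timp1 turned without the inferior 7 array, and Adamtsl1 without the inferior 6 or the superior 7 array. The other 8 genes kept their sign, and their values ranged under these omissions from 0.12 to 0.55 (Adamts5), 0.12 to 0.58 (Adamtsl2), 0.22 to 0.38 (Adamts12), 0.15 to 0.34 (Adamtsl5), -0.60 to -0.12 (Adamts4), -0.46 to -0.21 (Adamts3), -0.41 to -0.18 (Adamts20) and -0.34 to -0.17 (Timp3). The members' median ranged from -0.14, without the inferior 7 array, to 0.072. With the top 25% of probe sets 6 of the 10 remaining member genes were above 0, a smaller count because fewer were tested. The genes above background numbered 25 to 28 over the alternatives. The member probe sets that differed between pool numbers numbered 13 to 16 under other scalings and offsets, and 3, 15 and 13 without pools 1, 6 and 7. Over all 22518 tested probe sets the number ran under these omissions from 294, without pool 1, to 5110. The depth behind a signal is unknown, and dim probe sets have the widest errors.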
